A study of Homo sapiens with 6 samples.

Results

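The 10 genes described here encode the EGR and AP-1 immediate early transcription factors: EGR1, EGR2 and EGR3, the FOS family (FOS, FOSB, FOSL1 and FOSL2) and the JUN family (JUN, JUNB and JUND). They were chosen by gene symbol from a table of 62700 genes, and each symbol matched 1 row. Of the 10, 9 held enough reads to be tested, and EGR2 did not. RNA came from SAS, an established line grown from a human squamous cell cancer, after transfection with an siRNA against IGF2BP1 (3 libraries) or with a control siRNA (3 libraries). The control libraries carry the genotype label WT and the others that of an IGF2BP1 knockdown; the dose, the time after transfection and the siRNA sequence are not stated in the labels. The labels number the replicates, and nothing says that they were separate cultures: a p-value here measures only the spread among the 6 libraries, possibly a technical one.

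Immediate early genes are switched on by growth factors, serum or stress without new protein synthesis, and most of their transcripts are short-lived. MAP kinases activate the ternary complex factors (the ELK proteins), which sit with the serum response factor SRF on CArG boxes in the promoters of genes such as EGR1 and FOS. EGR proteins are zinc-finger factors that bind GC-rich sites and induce the gene of their own corepressor NAB2. FOS proteins pair with JUN proteins through leucine zippers to form AP-1, which binds TGANTCA sites, and FOSL1 and FOSL2 lack the strong activation domain of FOS and FOSB.

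Library totals lay between 17918496 and 26675064 reads, and knockdown 1 was the shallowest. A gene with 3 reads in a library has 0.115 to 0.165 CPM (reads scaled to library depth, with TMM scaling between libraries). Such floors cover counting error only. IGF2BP1 itself had 29, 25 and 21 reads in knockdowns 1 to 3, against 185, 223 and 292 reads in controls 1 to 3 (log2 fold change -3.07, SE 0.30, adjusted p = 4.56e-06, edgeR quasi-likelihood test). For the squamous label, 10 epithelial markers all had reads, DSG3 at only 1.41 CPM in knockdown and 2.24 CPM in control libraries. Their summed level was 5699 to 6778 CPM in knockdown and 10039 to 10913 CPM in control libraries. KRT5, KRT14, KRT6A, CDH1 and PKP1 were called lower (50% of the 10, beside 6.66% of all tested genes). KRT5 averaged 477 CPM in knockdown and 3584 CPM in control libraries. KRT17 (2283.5 CPM in knockdown and 2305.8 CPM in control), TP63, ITGB4, DSG3 and EPCAM were not called. PKP1 lost its call without knockdown 2 or 3 or any 1 control, at adjusted p up to 0.11 (edgeR). Of 10 fibroblast markers 5 were at 0 in all libraries (summed 5.72 to 9.29 CPM in knockdown, 6.37 to 8.54 CPM in control), PDGFRB being called higher at 1.73 CPM in knockdown and 0.605 CPM in control libraries (adjusted p = 0.0491, edgeR), a call lost on leaving out any 1 library (adjusted p up to 0.186). Of 10 leukocyte markers 6 were at 0, PTPRC and CD3E among them (21.0 to 25.9 CPM in knockdown, 24.4 to 27.3 CPM in control). CD14 (13.1 CPM in knockdown and 17.8 CPM in control) and CSF1R (10.6 and 7.48 CPM) were the highest, and neither was called. Of 10 endothelial markers 3 were at 0, KDR among them (8.44 to 15.6 CPM in knockdown, 7.32 to 9.75 CPM in control). VWF (6.52 CPM in knockdown and 4.45 CPM in control) and CDH5 (2.70 and 2.18 CPM) were the highest in CPM undivided by gene length, and neither was called. In bulk RNA, a changed share of cells and a changed level per cell cannot be told apart. The part of the lower KRT5, KRT14, KRT6A and CDH1 levels in the results below was not tested.

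After knockdown, EGR1, EGR3, FOS, FOSL2 and JUNB were lower, and FOSB, FOSL1, JUN and JUND were not called. Calls rest on an adjusted p below 0.05 in edgeR's quasi-likelihood test, with Benjamini-Hochberg adjustment over all 14649 tested genes. Of the 9 tested members 5 were called lower and 0 higher, where 6.66% of all tested genes were called lower and 12.9% in either direction. For 5 of the 9 each knockdown library lay below each control library, against 15.1% of all tested genes (30.7% did not overlap in either direction). A fall of at least 1 on the log2 scale was called for 4 members (EGR1, EGR3, FOS and JUNB), against 1.46% of all tested genes. The median log2 fold change of the 9 was -0.45, and that of all tested genes was 0.033. The members were picked by name with earlier results of these data known, so these counts are a description of the list.

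**Figure D1:**
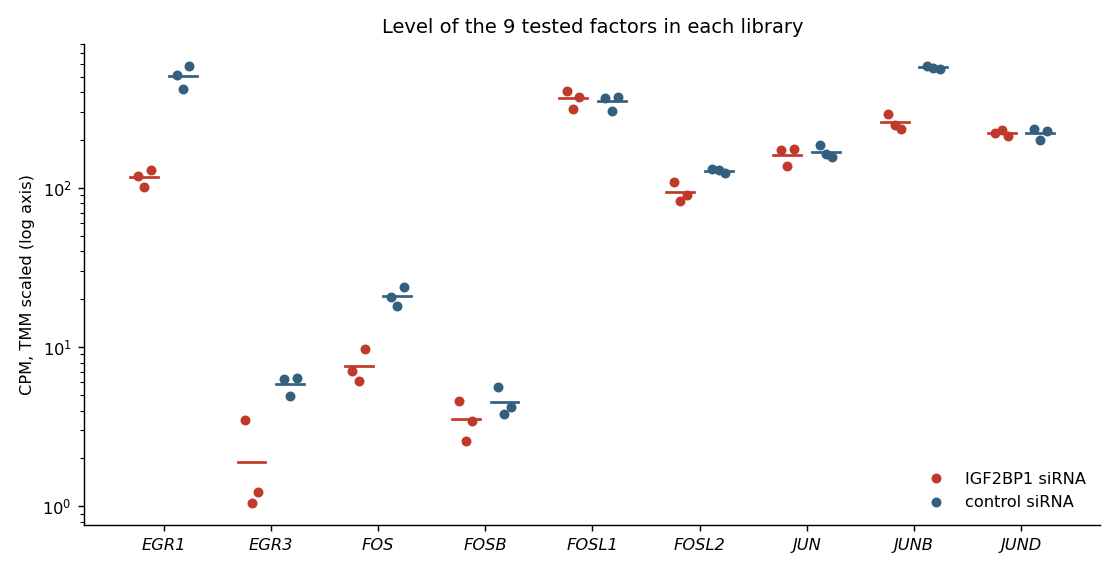
Level of each of the 9 tested genes in each library, in TMM-scaled CPM on a log axis; red points are the IGF2BP1 siRNA libraries, blue points the control siRNA libraries, and bars the group means. EGR1, EGR3, FOS, FOSL2 and JUNB separate between groups, while FOSB, FOSL1, JUN and JUND overlap. EGR2 is left out because it held too few reads to be tested.

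The promoters of the members whose results are set side by side below are shown so that the called genes (EGR1, FOS, JUNB, FOSL2) can be compared with the uncalled JUN and JUND. Each is the 250 bases before the RefSeq start site (GRCh38.p14), read 5′ to 3′ on the gene's strand; capitals mark every match to a CArG box, TGACGTCA, TGANTCA, TGACATCA, CCGGAAGT and GCGNGGGCG, searched on both strands, and to TATAAA, searched on the gene's strand. RefSeq start windows were found for 8 of the 10 genes. The windows lie at chr5:138465229-138465478 on the plus strand (EGR1), chr14:75278578-75278827 plus (FOS), chr19:12791236-12791485 plus (JUNB), chr2:28392608-28392857 plus (FOSL2), chr1:58784048-58784297 minus (JUN) and chr19:18281623-18281872 minus (JUND).
EGR1: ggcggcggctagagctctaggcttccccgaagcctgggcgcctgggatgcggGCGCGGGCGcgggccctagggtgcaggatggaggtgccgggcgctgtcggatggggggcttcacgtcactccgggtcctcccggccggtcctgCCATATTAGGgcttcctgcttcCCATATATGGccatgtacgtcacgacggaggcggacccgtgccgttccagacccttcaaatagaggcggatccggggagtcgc
FOS: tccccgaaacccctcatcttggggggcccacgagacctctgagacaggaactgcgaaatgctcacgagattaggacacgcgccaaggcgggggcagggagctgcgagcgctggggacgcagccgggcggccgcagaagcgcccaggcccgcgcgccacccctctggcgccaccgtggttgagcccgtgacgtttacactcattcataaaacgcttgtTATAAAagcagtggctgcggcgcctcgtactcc
JUNB: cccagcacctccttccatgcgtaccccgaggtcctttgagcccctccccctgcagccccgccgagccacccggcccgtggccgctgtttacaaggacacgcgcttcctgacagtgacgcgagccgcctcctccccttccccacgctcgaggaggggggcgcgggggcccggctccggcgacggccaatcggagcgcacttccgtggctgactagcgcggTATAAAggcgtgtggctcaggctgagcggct
FOSL2: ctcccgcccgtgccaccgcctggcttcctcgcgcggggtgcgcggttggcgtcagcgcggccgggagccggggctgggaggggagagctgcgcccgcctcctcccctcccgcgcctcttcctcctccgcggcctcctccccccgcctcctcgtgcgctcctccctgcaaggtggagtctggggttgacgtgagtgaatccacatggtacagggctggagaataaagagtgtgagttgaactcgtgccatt
JUN: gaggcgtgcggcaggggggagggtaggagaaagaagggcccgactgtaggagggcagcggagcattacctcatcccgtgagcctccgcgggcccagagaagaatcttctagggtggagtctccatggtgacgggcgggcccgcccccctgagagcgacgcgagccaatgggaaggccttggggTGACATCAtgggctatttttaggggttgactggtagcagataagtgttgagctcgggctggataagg
JUND: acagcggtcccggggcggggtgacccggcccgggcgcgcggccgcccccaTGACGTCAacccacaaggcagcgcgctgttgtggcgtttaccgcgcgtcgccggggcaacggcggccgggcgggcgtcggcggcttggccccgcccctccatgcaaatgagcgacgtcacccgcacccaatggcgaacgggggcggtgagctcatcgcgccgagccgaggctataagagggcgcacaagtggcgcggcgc

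The EGR1 window held 2 CArG boxes, at positions -105 to -96 and -83 to -74 from the start site, and 1 GCGNGGGCG match at -198 to -190, the kind of site that EGR proteins bind. A CArG box was found in 1.16% of 35116 RefSeq start windows and GCGNGGGCG in 8.41%. The FOS, JUNB and FOSB windows each held a TATAAA match (6.80% of windows), at -33 to -28, -31 to -26 and -30 to -25. The JUN window held TGACATCA, a variant AP-1 and CREB/ATF site, at -67 to -60 (2.37% of windows), and the JUND window held the cyclic AMP response element TGACGTCA at -200 to -193 (1.65%). The FOSL2 window held no match to any of these, and 1 of the 3 EGR2 windows held a CArG box at -71 to -62. TGANTCA (6.57% of windows) and CCGGAAGT, an ETS site (3.42%), had no match in any member window. A match is a string of letters and not a measured binding site. Among the 4 called genes with a window, no motif of this set was in all of the windows. EGR1 had CArG boxes, and FOSL2 had none of the set. FOS and JUNB had the TATAAA string, which the uncalled FOSB also had. Bases outside the windows were not searched, so a CArG box lying further upstream, in FOS for example, would be missed. Whether the called genes share a motif outside these windows was not tested.

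EGR1 had the lowest adjusted p of the members. EGR1 (ENSG00000120738; chromosome 5, 138465490 to 138469315, plus strand, GENCODE 29 on GRCh38) encodes the founding EGR zinc-finger factor, which is induced by ERK signalling. Its level was 118, 102 and 129.95 CPM in the 3 knockdown libraries (1, 2, 3), against 514, 417 and 584 CPM in the 3 control libraries (1, 2, 3). All 3 knockdown libraries lay far below the lowest control, control 2. The means were 117 ± 14.1 CPM after knockdown and 505 ± 83.9 CPM in controls (SD, n = 3 each). This gave a log2 fold change of -2.11 (SE 0.13, 95% interval -2.39 to -1.83, adjusted p = 3.88e-08, edgeR), so that 23.1% of the control level was left. By p-value EGR1 ranked 10 of 14649 tested genes.

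EGR3 (ENSG00000179388; chromosome 8, 22687659 to 22693302, minus strand), a related factor induced by many of the same signals, held far fewer reads. It had 63, 24 and 32 reads in knockdowns 1 to 3, against 143, 115 and 167 reads in controls 1 to 3. In CPM these were 3.46, 1.05 and 1.23 after knockdown and 6.27, 4.95 and 6.41 in controls. Knockdown 1 stood above the other 2 knockdowns and still below all controls. The log2 fold change was -1.65 (SE 0.39, 95% interval -2.47 to -0.82, adjusted p = 0.01, edgeR), and -2.36 without knockdown 1 (adjusted p = 3.05e-04). It was -1.39 without knockdown 2 (adjusted p = 0.0228, edgeR) and -1.41 without knockdown 3, where the call was only just kept (adjusted p = 0.0495). With 1 control left out it ran from -1.78 to -1.60, at adjusted p 0.0192 to 0.0377 (edgeR). Opposite-strand exons of AC055854.1 cover 3.38% of its exon bases.

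EGR2 (ENSG00000122877; chromosome 10, 62811996 to 62919900, minus strand), known for its role in myelinating Schwann cells, was close to the floor. It had 2, 0 and 2 reads in knockdowns 1 to 3, against 2, 6 and 9 reads in controls 1 to 3. The groups overlap, since knockdowns 1 and 3 and control 1 had equal reads. Summed over libraries, 4 reads after knockdown and 17 in controls gave a ratio of 0.253 after adjustment for depth; counting error alone put it between 0.0619 and 0.775 (95% interval).

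EGR4, the other EGR gene, and the corepressors gave 2 lower genes of 3 (66.7%, beside 6.66% of all tested genes). EGR4 had 15, 12 and 13 reads in knockdowns 1 to 3, against 79, 35 and 79 reads in controls 1 to 3 (log2 fold change -2.12, SE 0.45, adjusted p = 0.0048, edgeR). NAB2, which binds EGR proteins and represses their targets, averaged 86.3 ± 5.96 CPM after knockdown and 128 ± 7.74 CPM in controls (SD, n = 3 each), a difference of -0.57 on the log2 scale (SE 0.11, adjusted p = 0.00168, edgeR). NAB1, its paralog, averaged 2.62 CPM after knockdown and 2.87 CPM in controls and did not pass the threshold (-0.13, adjusted p = 0.87, and 0.30 without control 2).

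FOS (ENSG00000170345; chromosome 14, 75278774 to 75282230, plus strand), the prototype AP-1 subunit with a strong activation domain, was also lower. Its level was 7.09, 6.17 and 9.67 CPM in the 3 knockdown libraries (1, 2, 3), against 20.6, 18.05 and 23.9 CPM in the 3 control libraries (1, 2, 3). The highest knockdown library, knockdown 3, was well below the lowest control, control 2. The log2 fold change was -1.44 (SE 0.20, 95% interval -1.87 to -1.01, adjusted p = 1.61e-04, edgeR), and 36.7% of the control level was left.

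FOSL2 (ENSG00000075426; chromosome 2, 28392448 to 28417312, plus strand), which encodes FRA2, had a smaller fall. Its level was 109, 82.9 and 89.6 CPM in the 3 knockdown libraries (1, 2, 3), against 131, 130.1 and 123 CPM in the 3 control libraries (1, 2, 3). The groups did not overlap, though knockdown 1 came near to control 3. Relative to controls it fell by 0.45 on the log2 scale (SE 0.12, adjusted p = 0.0149, edgeR). Without knockdown 3 the call was lost (log2 fold change -0.43, adjusted p = 0.0691).

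FOSL1 (ENSG00000175592; chromosome 11, 65892049 to 65900573, minus strand), which encodes FRA1, a factor abundant in squamous carcinomas, was not called. Its level was 407, 315 and 371 CPM in the 3 knockdown libraries (1, 2, 3), against 367, 305 and 373 CPM in the 3 control libraries (1, 2, 3), so the groups overlapped throughout. The log2 fold change was 0.06 with a 95% interval from -0.18 to 0.31 (adjusted p = 0.795, edgeR), and it was -0.03 without knockdown 1 and -0.04 without control 2. Its processed pseudogene FOSL1P1 held 2 reads over all libraries. FOSB (ENSG00000125740; chromosome 19, 45467995 to 45475179, plus strand), the close paralog of FOS, had 84, 59 and 90 reads in knockdowns 1 to 3, against 129, 88 and 110 reads in controls 1 to 3. The groups overlapped, knockdown 1 lying above controls 2 and 3 in CPM. Its log2 fold change was -0.36, with a 95% interval from -0.997 to 0.27 (adjusted p = 0.498, edgeR), which holds both 0 and the fold change of FOSL2.

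JUNB (ENSG00000171223; chromosome 19, 12791496 to 12793315, plus strand), a JUN paralog that restrains JUN in keratinocytes and other cells, had the highest level per length of all members in controls. Its level was 293, 249 and 236 CPM in the 3 knockdown libraries (1, 2, 3), against 583, 570.0 and 557 CPM in the 3 control libraries (1, 2, 3). The control libraries lay close together and no knockdown library came near them. The means were 259 ± 29.8 CPM after knockdown and 570.0 ± 13.01 CPM in controls (SD, n = 3 each), with a log2 fold change of -1.14 (SE 0.11, 95% interval -1.36 to -0.91, adjusted p = 2.72e-06, edgeR). Exons of HOOK2 on the other strand cover 14.2% of JUNB's exon bases, and HOOK2 was also lower, at 59.5 ± 6.08 CPM after knockdown and 83.9 ± 6.94 CPM in controls (log2 fold change -0.50, adjusted p = 0.0102, and 0.0521 without knockdown 3, edgeR). Because the strand setting of the counting is not given in the sources used here, reads of the shared stretch cannot be assigned with certainty.

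JUN (ENSG00000177606; chromosome 1, 58780788 to 58784327, minus strand), which encodes c-Jun, and JUND (ENSG00000130522; chromosome 19, 18279760 to 18281622, minus strand), the more evenly expressed paralog, were not called. The level of JUN was 172, 138 and 175 CPM in the 3 knockdown libraries, against 186, 162 and 156 CPM in the 3 control libraries, and the groups overlapped. Its log2 fold change was -0.06 (95% interval -0.30 to 0.19, adjusted p = 0.816, edgeR), and 0.02 both with no scaling factor and without knockdown 2. The level of JUND was 222, 231 and 213 CPM in the 3 knockdown libraries, against 233, 200.1 and 229 CPM in the 3 control libraries, with control 2 the lowest and control 1 the highest. Its log2 fold change was 0.01 (95% interval -0.21 to 0.22, adjusted p = 0.974, edgeR), and its sign turned with RLE scaling (-0.0085), with no count filter (-0.0050), without knockdown 2 (-0.05), without control 2 (-0.07) and in DESeq2 (-0.0085). The lower bounds for FOSL1, JUN and JUND (-0.18, -0.30 and -0.21) lie above the fold change of JUNB (-1.14).

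**Figure D2:**
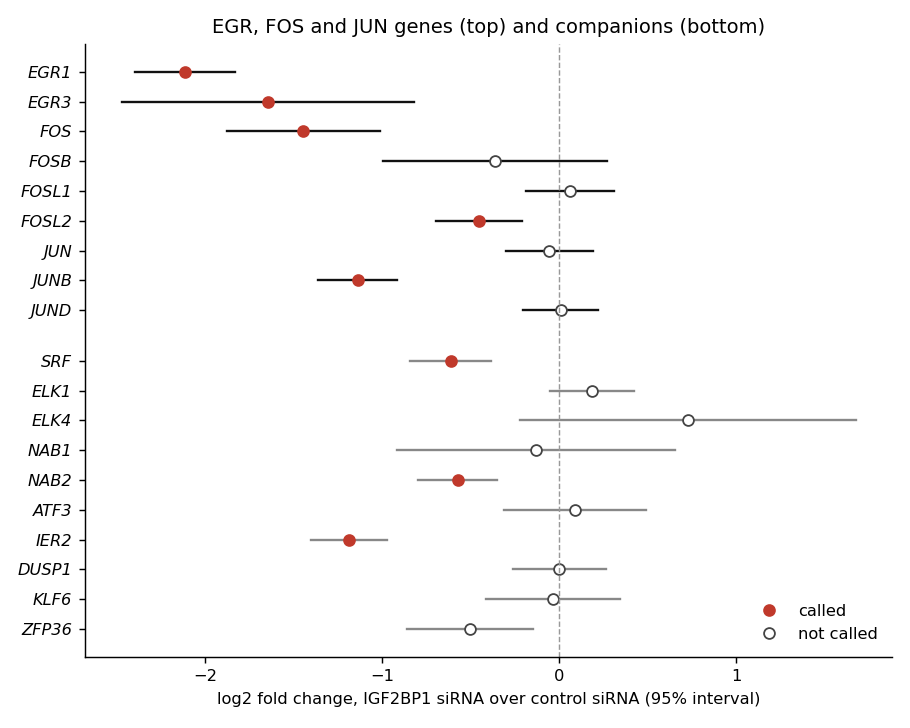
Log2 fold change of IGF2BP1 siRNA over control siRNA with its 95% interval for the 9 tested members (top) and 10 companion genes (bottom); filled points are called at an adjusted p under 0.05. EGR1 (-2.11), EGR3 (-1.65), FOS (-1.44) and JUNB (-1.14) lie furthest to the left among the members, IER2 (-1.19) is the lowest companion, and the intervals of FOSL1, JUN and JUND span 0.

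Levels of different genes were compared per length, as CPM per kilobase of the deposited gene length. In knockdown libraries the order ran FOSL1 (193 ± 24.6), JUNB (142 ± 16.3), JUND (115 ± 4.85), JUN (44.6 ± 5.68), EGR1 (37.2 ± 4.49), FOSL2 (13.1 ± 1.87), FOS (2.40 ± 0.57), FOSB (0.64 ± 0.18), EGR3 (0.38 ± 0.27) and EGR2 (0.017 ± 0.015 CPM per kilobase; SD, n = 3 each). In control libraries it ran JUNB (311 ± 7.11), FOSL1 (185 ± 19.97), EGR1 (161 ± 26.8), JUND (114 ± 9.33), JUN (46.4 ± 4.37), FOSL2 (17.9 ± 0.58), FOS (6.55 ± 0.92), EGR3 (1.17 ± 0.16), FOSB (0.82 ± 0.18) and EGR2 (0.062 ± 0.035 CPM per kilobase; SD, n = 3 each). Between neighbours in these orders, the ranges overlapped for JUN with EGR1 and for FOSB with EGR3 in knockdown libraries, and for FOSL1 with EGR1 and for EGR3 with FOSB in control libraries. The other neighbours did not overlap within a group. EGR1 stood among the most abundant members in controls and beside JUN after knockdown.

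The makeup of each family by per-length level followed from these values and is given without a test. FOSL1 made up 92.3% ± 0.10 of the FOS family after knockdown and 87.9% ± 0.93 in controls, while FOS made up 1.15% ± 0.25 after knockdown and 3.11% ± 0.22 in controls (SD, n = 3 each). The summed level of the FOS family was 209 ± 26.7 CPM per kilobase after knockdown and 210.0 ± 20.6 CPM per kilobase in controls, so the sum, set mainly by FOSL1, overlapped between the groups. In the JUN family JUNB made up 46.9% ± 2.43 after knockdown and 66.0% ± 1.51 in controls, JUND 38.3% ± 2.54 after knockdown and 24.2% ± 1.48 in controls, and JUN 14.8% ± 1.93 after knockdown and 9.82% ± 0.61 in controls (SD, n = 3 each). The summed JUN family was 301 ± 18.7 CPM per kilobase after knockdown and 472 ± 16.5 CPM per kilobase in controls, and its groups did not overlap. EGR1 made up 98.1% to 99.4% of the EGR family in every library.

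**Figure D3:**
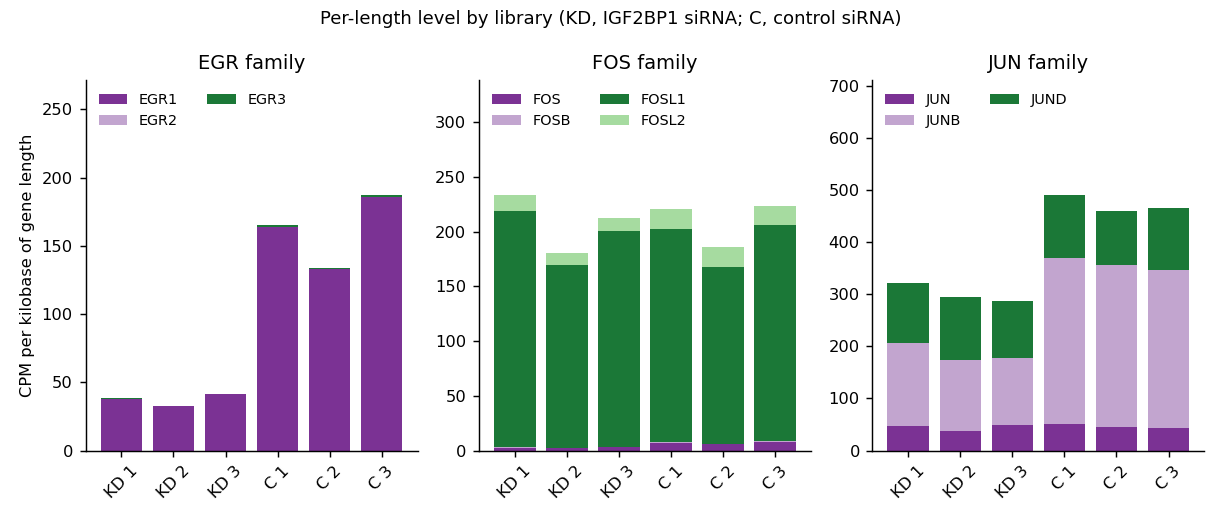
Per-length level (CPM per kilobase of gene length, linear axis from 0) of each member, stacked by family, in the 3 IGF2BP1 siRNA libraries (KD) and the 3 control siRNA libraries (C). The EGR and JUN stacks are lower in all KD libraries, through EGR1 and JUNB, while the FOS stacks, made mostly of FOSL1, overlap.

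The members also varied within the groups. Knockdown 2 was the lowest of the 3 knockdown libraries for 8 of the 10 genes, the exceptions being JUNB and JUND. Control 2 was the lowest control for 6 of the 10, and control 3 the highest for 5, among them EGR1, FOS, EGR3 and FOSL1. Genes with the most similar profile over the 6 libraries were sought among tested genes with a mean of at least 5 CPM, by the root mean square difference of mean-centred log2 CPM. LCN2, the secreted siderophore-binding protein lipocalin 2 (difference 0.142), the keratin gene KRT6A (0.160) and the netrin receptor gene UNC5B (0.174) came nearest to EGR1. C1S, a complement protease (0.127), the retinol-metabolism gene DHRS3 (0.129) and the alkaline phosphatase gene ALPG (0.136) came nearest to FOS. All 6 were called lower, which follows from the search, since it matched the difference between the groups as well as the spread within them. Near-identical copies make KRT6A and ALPG uncertain. Nearest to FOSL1 were the bromodomain gene BRD2 (0.0261), the DNA repair helicase gene ERCC2 (0.0317) and TGFB1 (0.0334). None of them was called, which the search likewise built in.

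AU-rich elements in the 3′ untranslated region mark short-lived transcripts, and the pentamer ATTTA is their core. In the GENCODE 29 principal transcripts, FOS had 5 ATTTA in 806 bases of 3′ UTR, or 6.20 per kilobase, above 95.2% of 11604 tested genes with a 3′ UTR; JUNB had 2 in 500 bases (4 per kilobase, above 85.9%). FOSL2 had 9 in 4864 bases (1.85 per kilobase), JUN 3 in 1287 bases (2.33), EGR3 3 in 2814 bases (1.07), EGR1 1 in 1234 bases (0.81) and FOSL1 1 in 666 bases (1.5). The median of the 11604 genes was 1.44 per kilobase, and 67.8% held at least 1 pentamer. Densities of the called genes thus ran from 0.81 for EGR1 to 6.20 for FOS, on both sides of the uncalled JUN, FOSL1, JUND (1.47) and FOSB (1.39). The stretches of 30 bases with the most pentamers are shown for FOS, JUNB, FOSL2 and EGR1, which were called, and for JUN and FOSL1, which were not (ATTTA in capitals, 5′ to 3′ on the gene's strand, GRCh38). They lie at chr14:75282057-75282086 plus (FOS), chr19:12793059-12793088 plus (JUNB), chr2:28416348-28416377 plus (FOSL2), chr5:138469063-138469092 plus (EGR1), chr1:58781336-58781365 minus (JUN) and chr11:65892272-65892301 minus (FOSL1).
FOS: ttgtgtttttaATTTATTTAttaagatgga
JUNB: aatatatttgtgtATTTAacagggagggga
FOSL2: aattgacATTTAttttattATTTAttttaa
EGR1: actgaaaatgtaaATTTAtaaatatattca
JUN: ttccagaaaggatATTTAagaaaatacaat
FOSL1: gagggcagctgctATTTAttttcctaaaga

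In FOS 2 pentamers overlap within the stretch, in FOSL2 2 stand apart, and in JUNB, EGR1, JUN and FOSL1 there is 1. Among 9 tested genes of proteins that bind such elements or the poly(A) tail, 2 were called lower (22.2%, beside 6.66% of all tested genes). KHSRP, which promotes decay, fell (log2 fold change -0.47, adjusted p = 0.0111, edgeR), as did HNRNPD, another decay factor (-0.33, adjusted p = 0.0473). The call of KHSRP was lost without knockdown 3 (adjusted p = 0.0581) and that of HNRNPD without knockdown 3, with any 1 control left out and with no scaling factor (adjusted p up to 0.203). ZFP36, an immediate early gene whose protein also promotes decay, had 23.1 ± 5.56 CPM after knockdown and 32.6 ± 1.87 CPM in controls (SD, n = 3 each; -0.50, adjusted p = 0.0614, edgeR), and passed the threshold in 6 alternative settings, such as without knockdown 1 (adjusted p = 0.0138). The other 6 were not called.

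Among 11 tested genes of SRF, the ternary complex factors, CREB activators and related factors, SRF was called lower and 10 were not called. This share (9.09%) is near the 6.66% called lower among all tested genes. SRF averaged 135 ± 13.9 CPM after knockdown and 206 ± 14.2 CPM in controls (SD, n = 3 each), and the groups did not overlap. Its cofactor genes ELK1 (log2 fold change 0.19, adjusted p = 0.323) and ELK4 (0.73, adjusted p = 0.343, at 1.47 CPM after knockdown and 0.88 CPM in controls) were not called. The list's median log2 fold change was 0.19. Among 15 genes of the MAP kinase modules 2 were called, both lower; this share (13.3%) is near the 12.9% called among all tested genes. MAP2K2, which encodes the ERK kinase MEK2, averaged 157 ± 8.28 CPM after knockdown and 343 ± 24.6 CPM in controls (SD, n = 3 each; log2 fold change -1.13, SE 0.10, adjusted p = 1.99e-06, edgeR), and MAPK3, which encodes ERK1, fell by 0.36 on the log2 scale (adjusted p = 0.0376). The call of MAPK3 was lost without knockdown 2, knockdown 3, control 1 or control 3 (adjusted p up to 0.105) and with no scaling factor (adjusted p = 0.0757). MAP2K1, the MEK1 gene, was not called at 94.3 CPM after knockdown and 96.5 CPM in controls.

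MAP kinase phosphatases, several of which are themselves induced by ERK, were called lower in 4 of 9 cases (44.4%, beside 6.66% of all tested genes) and higher in 0; the list's median log2 fold change was -0.35. DUSP2 averaged 76.2 ± 4.88 CPM after knockdown and 227 ± 12.9 CPM in controls (SD, n = 3 each; log2 fold change -1.57, SE 0.10, adjusted p = 6.37e-08, edgeR). DUSP10 (-0.67), DUSP7 (-0.49) and DUSP5 (-0.35, adjusted p = 0.0472) also fell. The call of DUSP5 was lost without knockdown 2, knockdown 3, control 1 or control 3 and with no scaling factor (adjusted p up to 0.13). DUSP1, the classical serum-induced phosphatase, was not called at 54.1 ± 3.71 CPM after knockdown and 54.0 ± 6.09 CPM in controls (SD, n = 3 each; log2 fold change 0.00, 95% interval -0.26 to 0.26). DUSP8, a phosphatase of the JNK and p38 kinases, lay just outside the threshold in the other direction, with 44, 81 and 88 reads in knockdowns 1 to 3 and 47, 25 and 28 reads in controls 1 to 3. Its groups did not overlap in CPM (log2 fold change 1.15, SE 0.38, adjusted p = 0.0535, edgeR), and its adjusted p ran from 0.0345 without control 1 to 0.201 without control 2. DUSP6 (log2 fold change 0.26, adjusted p = 0.198), DUSP4 (-0.24, adjusted p = 0.331) and DUSP16 (-0.83, adjusted p = 0.306) were not called either (edgeR). For DUSP6 each knockdown library lay above each control library.

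Other immediate early genes moved in both directions: of 22 tested 6 fell, 2 rose and 14 were not called. That is 27.3% called lower, beside 6.66% of all tested genes, while the 2 that rose are a share near the 6.27% called higher among all tested genes; the list's median log2 fold change was -0.14. IER2, whose product is a small nuclear protein, fell to 199 ± 12.0 CPM after knockdown, against 454 ± 30.9 CPM in controls (SD, n = 3 each; log2 fold change -1.19, SE 0.10, adjusted p = 1.08e-06, edgeR). SGK1 (-0.84), TNFAIP3 (-0.63), IER3 (-0.48), PLK2 (-0.47) and MYC (-0.34) also fell. The call of TNFAIP3 was lost without any 1 library other than knockdown 2, with no scaling factor and with the filter at 5 CPM (adjusted p up to 0.137). That of IER3 was lost without control 1 (adjusted p = 0.0598), that of PLK2 without control 2 or control 3 and with no scaling factor (up to 0.0833), and that of MYC without knockdown 2, knockdown 3, control 1 or control 3 and with no scaling factor (up to 0.131). KLF4 (0.84, adjusted p = 0.0473) and the nuclear receptor gene NR4A1 (0.64, adjusted p = 0.0243) rose. KLF4 overlapped between the groups, and its call was lost without knockdown 1, knockdown 2, control 2 or control 3 (adjusted p up to 0.205); that of NR4A1 was lost without knockdown 3, control 2 or control 3 (up to 0.15). KLF6 (-0.03, adjusted p = 0.938) was not called.

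Among 10 tested genes of other bZIP proteins that pair with FOS or JUN, JDP2, a repressor of AP-1, rose to 6.25 ± 0.76 CPM after knockdown, against 3.16 ± 0.53 CPM in controls (SD, n = 3 each; log2 fold change 0.99, SE 0.26, adjusted p = 0.0195, edgeR), and the other 9 were not called. That call was lost without knockdown 3, control 1 or control 3 (adjusted p up to 0.0901). The 1 called gene of the 10 (10%) is a share near the 6.27% called higher among all tested genes. ATF3, a stress-induced partner, was not called (0.09, adjusted p = 0.821).

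Genes reported elsewhere as AP-1 targets split: of 16 tested 2 rose, 2 fell and 12 were not called. The stromelysin gene MMP3 rose to 20.3 ± 3.72 CPM after knockdown, against 4.11 ± 0.47 CPM in controls, and the cornified envelope gene IVL to 4.57 ± 1.14 CPM, against 0.851 ± 0.11 CPM (SD, n = 3 each; adjusted p = 1.90e-06 and 2.23e-04, edgeR). The cytokine genes IL6 (-1.24) and CXCL8 (-1.43) fell. PLAU (646 CPM after knockdown and 666 CPM in controls), CD44 and CCND1 were not called. Of 14 tested genes reported as EGR1 targets 3 fell and 0 rose, among them ID3, an inhibitor of bHLH factors (-0.62, adjusted p = 4.77e-04), and NAB2. The other 11, among them TGFB1, PDGFB and FN1, were not called. The share of reported AP-1 targets called in either direction was 25%, beside 12.9% of all tested genes. For reported EGR1 targets the share called lower was 21.4%, beside 6.66% of all tested genes. Many of these genes answer to other factors as well.

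**Figure D4:**
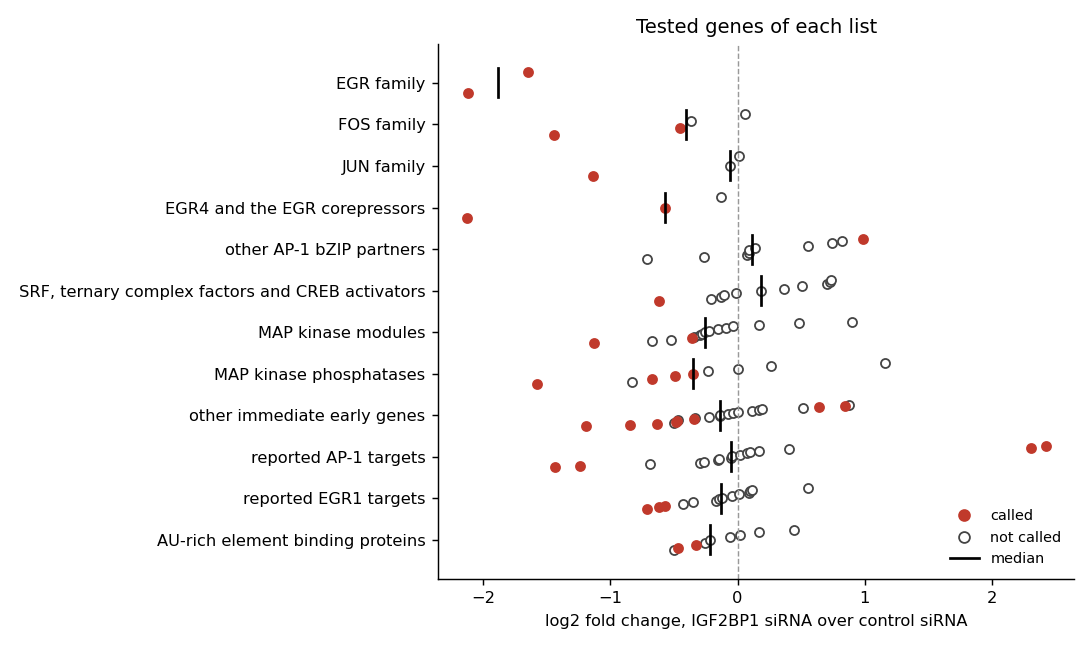
Log2 fold change of IGF2BP1 siRNA over control siRNA for each tested gene of the EGR, FOS and JUN families and of 9 lists of partners, regulators and reported targets; filled points are called and vertical bars are list medians. Medians run from -1.88 (EGR family, 2 genes) to 0.19 (SRF and related factors), and the reported AP-1 targets hold called genes on both sides of 0.

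**Figure D5:**
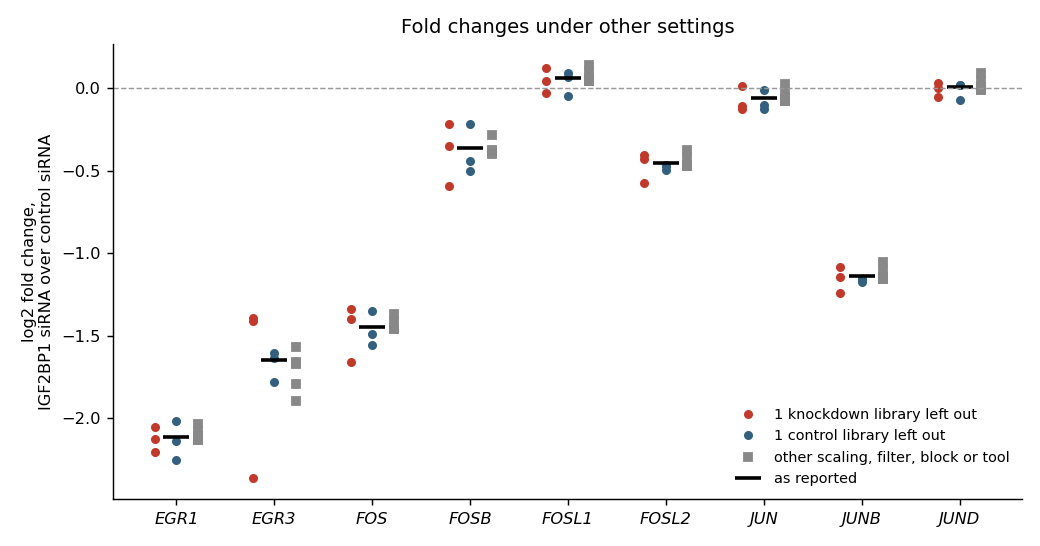
Log2 fold change of each tested member as reported (black bar) and under 13 other settings: 1 knockdown library left out (red), 1 control library left out (blue), or another scaling, filter, replicate block or tool (grey). EGR1 stays between -2.25 and -2.01 and JUNB between -1.24 and -1.05, while EGR3 runs from -2.36 to -1.39.

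Across the 13 other settings, the 5 called members and FOSB (-0.59 to -0.21) kept their direction in every one that tested them. The ranges of log2 fold change were, for the called members, EGR1 (-2.25 to -2.01), EGR3 (-2.36 to -1.39), FOS (-1.66 to -1.33), FOSL2 (-0.57 to -0.37) and JUNB (-1.24 to -1.05). EGR1, FOS and JUNB were called in all 13, EGR3 in all 12 that tested it (adjusted p up to 0.0495, edgeR), and FOSL2 in 12 of 13. FOSB, FOSL1, JUN and JUND were called in none.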

How the data were processed

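Per the labels' protocols, TRIZOL-extracted RNA was selected on oligo-dT beads, reverse transcribed from random hexamers and made into directional libraries by the dUTP method. The authors deposited unnormalized counts for each gene in each library, together with a gene length in bases. Per the submitters' processing notes, cutadapt 2.8, HISAT2 2.1.0, SAMtools 1.10, featureCounts 2.0.0 and build hg38 were used; no source used here gives their settings or the annotation release. Columns were matched by library name, and 0 were left unused.

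Counts were filtered with filterByExpr (minimum count 10, minimum total 15) and tested in R 4.3.3 with edgeR 4.0.16 (TMM, robust dispersions, glmQLFit, glmQLFTest, 2 groups, no covariate). The SE of a log2 fold change is its size divided by the square root of the quasi-F statistic. CPM values are TMM scaled. Replicates differed beyond sampling noise (chi-square per degree of freedom 14.6 to 36.2 over genes that held 20 or more reads in a pair of libraries). Alternatives were RLE scaling, no scaling factor, no filter, 5 CPM in 3 libraries, the replicate block, leaving out each library, DESeq2 1.42.0 and limma-voom (limma 3.58.1). The fit was tested on simulated data. Promoter sequences are from RefSeq (GRCh38.p14); positions and untranslated regions are from GENCODE 29.

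Members and lists were chosen with earlier results of these data known. Named genes were the members, fixed companions, up to 3 called genes per direction and list, and the 3 nearest profiles to EGR1, FOS and FOSL1. IER3, PLK2, MYC, DUSP4, DUSP5, DUSP6, DUSP8, DUSP16, PLAU, CD44, CCND1, TGFB1, PDGFB, FN1, MAP2K1, KRT14, KRT17, TP63, ITGB4, DSG3, EPCAM, PKP1, HOOK2, CD14, CSF1R, VWF and CDH5 were named outside that rule, with their values seen. A gene that this rule names is not reported here.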

Additional observations from a re-analysis of the deposited data

How the results depend on the processing

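The number of genes called, 1893 as reported, ran from 1231 (without control 2) to 1948 (without knockdown 1) when 1 library was left out, and from 1834 (limma-voom) to 2431 (replicate block) in the other settings. The number of members called lower, 5 as reported, was 4 or 5 in each leave-one-out fit, and 4 with the filter of 5 CPM in 3 libraries, which removes EGR3 and FOSB. The replicate numbers were not taken as pairs: deviations from the group means correlated at 0.18, 0.086 and -0.073 for replicates 1, 2 and 3, and knockdown 2 correlated best with control 3. The replicate block called 5 members lower, as did the fit without it. EGR2, at 0 to 9 reads a library, and the low counts of EGR3 and FOSB limit what could be seen of them. Undivided by gene length, FOSL1 made up 77.6% of the FOS family after knockdown and 69.3% in controls, and JUNB made up 40.2% and 59.5% of the JUN family, so the differences kept their direction. Of the other named genes' values under alternatives, 650 kept their side of the threshold, 58 lost and 12 gained the call, and 2 uncalled ones changed sign by more than their standard error (NAB1 without control 2 and FN1 without control 3). CD14, CSF1R, VWF, CDH5, KRT17, TP63, ITGB4, DSG3, EPCAM, DUSP4, DUSP6 and DUSP16 are not in these counts.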
